A study of Mus musculus with 4 samples.

Results

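The genes of the matrix metalloproteinases (MMPs), the ADAMTS proteases, the ADAMTS-like proteins and the tissue inhibitors of metalloproteinases (TIMPs) were taken from the mammary fat pad (MFP) count table by their symbols. The rule kept Mmp and Adamts genes followed by a number, Adamtsl genes followed by a number, and Timp1 to Timp4. It found 51 genes of the 55487 in the table, namely 23 MMP, 19 ADAMTS, 5 ADAMTS-like and 4 TIMP genes. Whole MFP was compared between aged and young C57BL/6 mice to learn how age alters the fatty tissue into which melanoma cells were later injected. Each age had 2 biological replicates, aged replicates 1 and 2 at 14 months and young replicates 1 and 2 at 8 weeks. Total RNA was sequenced from lysed whole tissue, so each library holds RNA of all cell types of the pad. No transgene, drug or tumour is named for these samples. The sample labels name c57b/6j animals, and the paper's general section on mice also names strain J. Its methods for the injected mice instead name Charles River C57BL/6NCrl females. The substrain of the sequenced tissue is therefore uncertain.

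Extracellular matrix is cut by zinc-dependent proteases that are secreted or anchored at the cell surface. MMPs are made as inactive proenzymes whose propeptide must be removed, and between them they cleave collagens, gelatin, laminin, elastin and many signalling proteins. ADAMTS proteases carry thrombospondin repeats that hold them to the matrix, and they cut proteoglycans, trim procollagens or act on fibrillin microfibrils, while ADAMTS-like proteins share those repeats but have no catalytic domain. TIMPs bind the active site of MMPs, and Timp3 also inhibits several ADAMTS and ADAM proteases. In fat pads this system is known for the remodelling that goes with adipocyte growth and with branching of the mammary ducts.

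Library totals lay between 68803304 and 98402403 counts, and 3 counts, taken as the smallest number told from 0, correspond to 0.0337 to 0.0407 CPM (counts scaled to a common library size, here with TMM factors). These floors cover counting error only, since amplified reads are not independent molecules. All 7 adipocyte and all 8 mammary epithelial markers were measured in every library, which is only a weak check of the fat pad label. Skeletal muscle RNA was also present, and the summed level of its 10 markers was 38786 and 61491 CPM in the aged against 10003 and 13958 CPM in the young libraries, with each of the 10 higher in both aged libraries. Summed adipocyte markers were 7811 and 5859 CPM in the aged against 5026 and 5037 CPM in the young libraries, and each of the 7 was higher in both aged libraries. The muscle sum exceeded the adipocyte sum in every library, without correction for gene length or number of markers. Young replicate 1 stood apart by its B and T lymphocyte markers, which summed to 636 CPM against 8.55 and 60.9 CPM in the aged libraries and 3.37 CPM in young replicate 2. It also had the lowest level of 21 of the 42 tested genes described here, and young replicate 2 had the highest level of 21. Mammary epithelial markers were likewise lowest in young replicate 1, at 903 CPM, and highest in young replicate 2, at 2189 CPM, beside 1671 and 1639 CPM in the aged libraries. Mast cell markers (100 against 242 to 250.2 CPM) and smooth muscle and pericyte markers (405 against 708 to 714 CPM) were also lowest in young replicate 1. Gene by gene, however, all 6 mast cell markers had positive log2 fold changes, aged over young. For 5 of them both aged libraries lay above both young libraries, beside 23.3% of all genes, and 1 overlapped between ages. In such bulk tissue, fewer cells of a type and less RNA per cell cannot be told apart. The part of these cell type differences in the results below was not tested.

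Of the 51 genes, 42 had enough counts to be tested and 9 did not. None of the 42 passed edgeR's quasi-likelihood test at a Benjamini-Hochberg adjusted p under 0.05, and the smallest adjusted p among them was 0.36. Of all 22485 genes tested 0% passed that threshold. At an unadjusted p under 0.05, 12 of the 42 were reached (28.6%), beside 10.5% of all genes. Of these, 8 were higher in aged MFP, where 7.24% of all genes were, and 4 were lower, where 3.31% of all genes were. DESeq2, the tool named in the methods, called 7 of the 43 genes it gave an adjusted p (16.3%), beside 3.67% of all genes: Timp2, Timp3, Mmp3 and Mmp9 as higher, a direction in which it called 3.03% of all genes, and Adamts4, Adamts17 and Adamts19 as lower, a direction in which it called 0.642%. The DESeq2 calls depended strongly on single libraries, numbering 1 without either aged replicate, 10 without young replicate 1 and 15 without young replicate 2, and none of the 7 was called in all 4 of these fits. Likewise, the number of genes at an unadjusted p under 0.05 was 6 without aged replicate 1, 9 without aged replicate 2, 16 without young replicate 1 and 25 without young replicate 2. With 2 against 2 samples, the smallest two-sided p that an exact permutation over samples allows is 0.333, and all p-values measure only the spread between these samples.

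The families differed in how many values lay on each side of 0, a difference that was not tested. Among tested MMPs, 10 had positive and 5 negative log2 fold changes (median 0.23), although scaling by total counts only turned Mmp15 and Mmp28 and made it 8 and 7. Among tested ADAMTS genes, 4 were positive and 14 negative with a median of -0.36, which became 3 and 15 under that scaling. The ADAMTS split rested on single libraries, being 9 and 9 without young replicate 2 (median 0.086), 8 and 10 without aged replicate 2, and 7 and 11 with a replicate block. For the MMPs, the split with 1 library left out ran from 8 and 7 to 12 and 3. Of the TIMPs, 3 were positive and 1 negative with a median of 0.99, and the split was the same under each scaling, filter and block, by DESeq2 and with each library left out of the edgeR fit. All 5 ADAMTS-like genes had positive values with a median of 0.39, but 2 of them turned negative with total counts only and 3 without young replicate 1. The median over all genes tested was -0.04, and scaling by total counts only shifted all genes by -0.18. In 13 of the 42 genes both aged libraries lay above both young libraries and in 8 below, which changed to 10 and 11 with total counts only. Under that scaling Mmp2, Mmp12 and Mmp17 overlapped between ages, while the aged libraries of Mmp16, Mmp19 and Adamts16 lay below the young ones. Over all genes 23.3% lay above and 22.8% below, together 46.1%, so that the 50% found here is close to what the table as a whole shows.

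**Figure D1:**
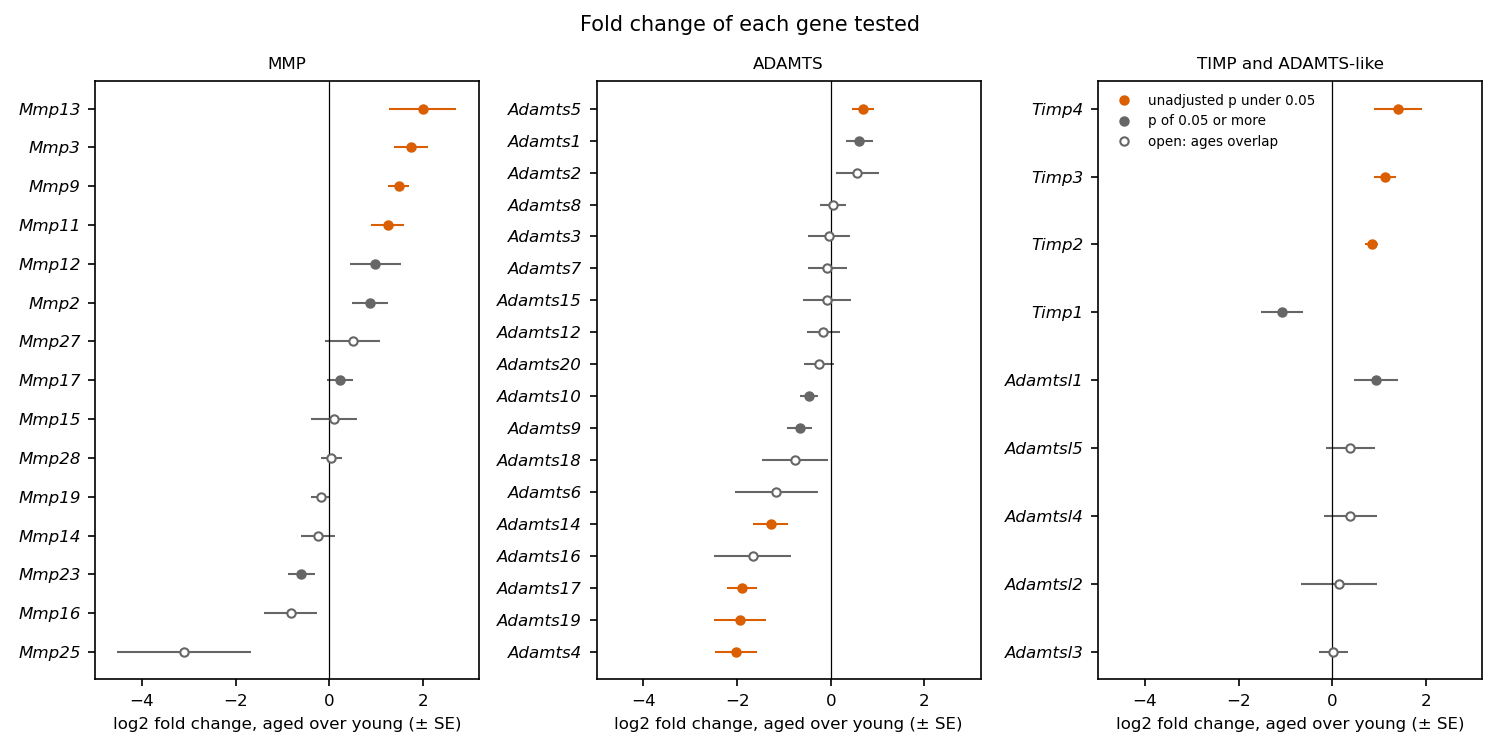
Log2 fold change, aged over young, of the 42 tested genes from edgeR's quasi-likelihood fit, with bars of 1 standard error; orange marks an unadjusted p under 0.05, and open circles mark genes whose aged and young libraries overlap. The 3 largest positive MMP values are those of Mmp13, Mmp3 and Mmp9, whereas 14 of 18 ADAMTS genes lie left of 0 (15 with total counts only, 11 with a replicate block and 9 without young replicate 2).

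Timp3, which stays bound to the matrix after secretion, was the TIMP with the highest level per length, and it was higher in aged MFP. It measured 507 and 402 CPM in the aged libraries and 177 and 237 CPM in the young libraries. Both aged libraries lay well above both young ones. The fold was 2.20 (log2 fold change 1.13, SE 0.24), with an adjusted p of 0.385 by edgeR and 0.0075 by DESeq2. Timp3 (ENSMUSG00000020044) lies at chr10:86300372-86349506 of GRCm38 and shares 1733 exonic bases with Syn3 on the other strand, which had at most 368 counts against 41454 for Timp3. Timp2, which inhibits MMPs and also helps Mmp14 activate pro-Mmp2 at the cell surface, measured 173 and 154 CPM in the aged and 87.1 and 95.5 CPM in the young libraries. Its replicates were close together at each age and the ages did not overlap. The fold was 1.79 (log2 fold change 0.84, SE 0.14), with an adjusted p of 0.36 by edgeR and 0.00418 by DESeq2.

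Timp4, a TIMP known from heart, muscle and fat, rested largely on 1 library. It measured 116 and 43.7 CPM in the aged and 30.3 and 30.1 CPM in the young libraries. Aged replicate 1 stood far above the other 3 libraries, and aged replicate 2 lay only modestly above the young pair. The log2 fold change was 1.40 (SE 0.51, adjusted p = 0.471 by edgeR, 0.138 by DESeq2) and 0.52 without aged replicate 1. Timp4 shares 90 exonic bases with Syn2 on the other strand, which reached 10598 counts against 9499 for Timp4, and the strand setting of the counting is not given in the sources used here. Timp1, the inducible TIMP of injury and inflammation, went the other way at a low level. It measured 0.881 and 0.898 CPM in the aged and 1.29 and 2.45 CPM in the young libraries. Timp1 thus had a log2 fold change of -1.07 (SE 0.45, adjusted p = 0.501 by edgeR, 0.359 by DESeq2), with no overlap between ages.

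Per kilobase of exon, Timp3 and Timp2 were the top pair of the TIMPs in every library. Timp3 measured 62.2 and 49.4 CPM per kb in aged against 21.7 and 29.1 in young libraries, and Timp2 measured 44.4 and 39.6 against 22.4 and 24.5. Timp3 was the higher of the pair in 3 of 4 libraries, and in young replicate 1 Timp2 was slightly higher. The 2 others followed in every library, Timp4 above Timp1, with means over the 4 libraries of 9.34 and 1.56 CPM per kb. The summed adipocyte and skeletal muscle markers were, like Timp2, Timp3 and Timp4, higher in both aged libraries, and their part in these values was not tested.

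**Figure D2:**
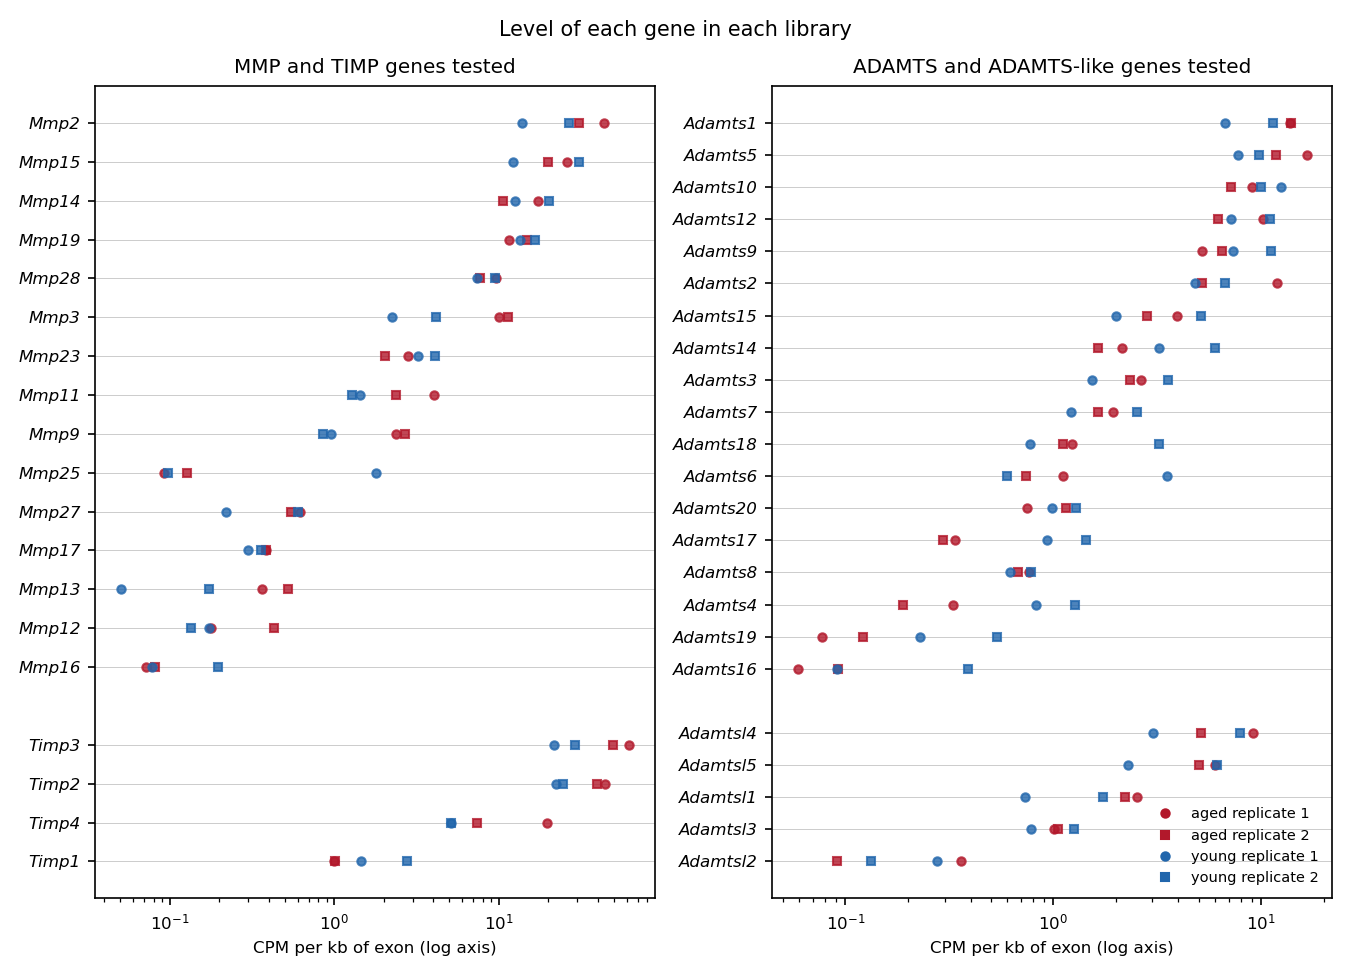
Level of each tested gene in each library, in CPM per kb of exon on a log axis, with aged libraries in red, young in blue, replicate 1 as circles and replicate 2 as squares. Timp3 and Timp2 are the most abundant genes of the 4 families by mean level per length, and Mmp2 leads the MMPs with 13.8 to 43.4 CPM per kb.

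The gelatinases Mmp2 and Mmp9 cleave denatured collagen and basement membrane collagen IV. Mmp9 (ENSMUSG00000017737, chr2:164940780-164955850), known from neutrophils, macrophages and other cells, was higher in aged MFP. It measured 8.35 and 9.49 CPM in the aged and 3.37 and 3.04 CPM in the young libraries. The ages were far apart relative to the spread within each. The fold was 2.79 (log2 fold change 1.48, SE 0.23), with an adjusted p of 0.36 by edgeR and 4.36e-06 by DESeq2. Summed neutrophil markers were 4.06 and 5.73 CPM in the aged and 3.73 and 4.20 CPM in the young libraries, with Ly6g at 0 to 0.0244 CPM, and summed macrophage markers were 294 and 362 against 520 and 218 CPM. Both sums overlapped between ages. The macrophage sum of young replicate 1 was mostly Lyz2, at 374 CPM against 45.9 to 119 CPM in the other libraries. Of the 6 macrophage markers 5 had positive values, and Adgre1, Csf1r and Mrc1 were, like Mmp9, higher in both aged libraries, with Mrc1 at 87.2 and 92.5 against 41.8 and 60.7 CPM. Their part in the Mmp9 values was not tested. Mmp2, a product of stromal fibroblasts, measured 146 and 104 CPM in the aged and 46.7 and 90.4 CPM in the young libraries. Its aged libraries lay above the young ones, but aged replicate 2 and young replicate 2 were close. Mmp2 had a log2 fold change of 0.87 (SE 0.39, adjusted p = 0.509 by edgeR, 0.381 by DESeq2), and 0.47 without young replicate 1. Neither tool called it.

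Stromelysins cleave proteoglycans, laminin and fibronectin and can activate other pro-MMPs. Mmp3 (ENSMUSG00000043613, chr9:7445822-7455975), stromelysin-1, was higher in aged MFP, with 18.1 and 20.6 CPM in the aged and 4.05 and 7.49 CPM in the young libraries. The lowest aged library was above the highest young one by a wide margin. The fold was 3.36 (log2 fold change 1.75, SE 0.37), with an adjusted p of 0.385 by edgeR and 0.00159 by DESeq2. Mmp11, stromelysin-3, which furin activates inside the cell, measured 11.2 and 6.56 CPM in the aged and 3.96 and 3.54 CPM in the young libraries. The ages did not overlap. Aged over young, this is a log2 fold change of 1.24 (SE 0.35, adjusted p = 0.426 by edgeR, 0.0521 by DESeq2). Mmp11 shares 155 exonic bases with Chchd10 on the other strand, which reached 15959 counts against 917 for Mmp11. Mmp13, collagenase-3, which cuts fibrillar collagens, was scarce, with 79 and 125 counts in aged MFP against 11 and 34 in young MFP. These correspond to 0.966 and 1.40 CPM against 0.134 and 0.461 CPM. This gives a log2 fold change of 1.99 (SE 0.71, adjusted p = 0.469 by edgeR, 0.191 by DESeq2), the largest positive value in the families.

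Mmp3 and Mmp13 lie in a cluster of 10 MMP genes on chromosome 9, between chr9:7272514, where Mmp13 starts, and chr9:7699585, where Mmp7 ends. The cluster holds the collagenases Mmp1a, Mmp1b, Mmp8 and Mmp13, the stromelysins Mmp3 and Mmp10, the macrophage elastase Mmp12, the matrilysin Mmp7, the enamel protease Mmp20 and Mmp27. All 4 that could be tested (Mmp3, Mmp12, Mmp13 and Mmp27) had positive log2 fold changes in aged MFP, with a median of 1.36, and the ages did not overlap in 3 of them, beside 23.3% of all genes with both aged libraries above the young ones. Mmp12 measured 1.28 and 3.12 CPM in the aged and 1.26 and 0.976 CPM in the young libraries, a log2 fold change of 0.98 (SE 0.55, adjusted p = 0.544 by edgeR). Aged replicate 1 and young replicate 1 had nearly the same Mmp12 level, which overlapped between ages with total counts only, and the 157 exonic bases that Mmp12 shares with Mmp1b on the other strand lie in a gene with 0 counts. Mmp27 overlapped between ages and turned negative without young replicate 1. The other 6 genes of the cluster had at most 25 counts in any library, and Mmp1b and Mmp10 had 0 in all 4, which allows up to 0.0407 CPM in the shallowest library.

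Most starts of these cluster genes hold short sequence features, shown here because they include those of Mmp3 and Mmp13, the largest values of the cluster. RefSeq promoters of GRCm38.p6, each running from 250 bases before to 50 bases after a start, were found for 36 of the 51 genes (39 promoters). The letters TGANTCA, with any base at N, were searched in them, and this pattern reads the same on both strands. It is wider than the site of AP-1 (Fos and Jun) proteins, which has C or G at N. The match in Mmp20 was TGAATCA, which is not that site. The share over all promoters was not split by the middle base. TGANTCA stood in 8 of 12 promoters of the cluster (66.7%), in 8 of 39 promoters of all the families (20.5%) and in 7.81% of all 32851 promoters. Every match among these 39 promoters thus lay in the cluster. None of the 4 TIMP, 10 ADAMTS or 4 ADAMTS-like promoters held TGANTCA. No promoter was found for the other 15 genes, so they were not searched. They were Mmp2, Mmp9, Mmp16, Mmp17, Mmp19, Adamts4 to Adamts8, Adamts10, Adamts15, Adamts16, Adamts19 and Adamtsl1. The letters TATAAA, as in the core of the TATA box, were searched anywhere in the 250 bases before the start, on the strand of the gene. They stood in 58.3% of cluster promoters against 7.59% of all. Their first base lay 7 bases before the start in Mmp3 and 58 in Mmp20, so the distance varied. Whether they act as TATA boxes was not tested. Mmp27, a tested member with a positive value, and Mmp8 held neither. Mmp12, also tested, held neither at its outer start (window chr9:7344277-7344396). At a start further inside Mmp12, TGAGTCA stood 44 bases before the start, again without TATAAA. The median GC content was 41.7% in the cluster, 63.3% in the other MMPs, 68% in ADAMTS, 61% in TIMP and 52.7% in all promoters. Below are the 120 bases before the start, 5′ to 3′ on the strand of the gene, with capitals marking TGANTCA. Mmp27 is shown as a tested cluster member without it.
Mmp13, chr9:7272394-7272513, plus strand: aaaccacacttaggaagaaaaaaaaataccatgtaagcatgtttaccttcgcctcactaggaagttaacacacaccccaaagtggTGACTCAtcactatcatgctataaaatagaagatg
Mmp3, chr9:7445702-7445821, plus strand: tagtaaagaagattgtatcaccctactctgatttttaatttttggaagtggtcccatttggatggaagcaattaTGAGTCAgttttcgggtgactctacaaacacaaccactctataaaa
Mmp10, chr9:7502222-7502341, plus strand: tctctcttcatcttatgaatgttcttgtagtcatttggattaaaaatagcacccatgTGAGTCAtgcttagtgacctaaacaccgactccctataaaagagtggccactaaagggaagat
Mmp1a, chr9:7464021-7464140, plus strand: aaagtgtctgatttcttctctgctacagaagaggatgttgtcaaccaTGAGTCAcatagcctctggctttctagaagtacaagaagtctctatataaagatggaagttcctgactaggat
Mmp7, chr9:7691970-7692089, plus strand: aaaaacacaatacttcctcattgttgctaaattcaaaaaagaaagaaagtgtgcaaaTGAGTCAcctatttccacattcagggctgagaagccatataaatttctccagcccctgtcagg
Mmp27, chr9:7571276-7571395, plus strand: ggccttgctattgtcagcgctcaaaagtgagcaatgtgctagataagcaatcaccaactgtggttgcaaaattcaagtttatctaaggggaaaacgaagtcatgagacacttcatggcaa
In Mmp3 the first base of the match stood 46 bases before the start, in Mmp13 35, in Mmp10 63, in Mmp1a 73 and in Mmp7 63. Mmp10, with 0 counts, and Mmp1a, with at most 3, hold the same letters as Mmp3, with 332 to 1836 counts. A match of letters is a description and says nothing of binding in these samples.

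Membrane-type MMPs act at the cell surface. Mmp14, which activates pro-Mmp2, measured 103 and 63.0 CPM in the aged and 74.9 and 121 CPM in the young libraries, with the ages fully interleaved. Its log2 fold change was -0.24 (SE 0.36, adjusted p = 0.795 by edgeR), and it became positive without aged replicate 2 or without young replicate 2. Mmp15 measured 141 and 108 CPM in the aged and 65.4 and 166 CPM in the young libraries. Its young libraries bracketed the aged ones, and the log2 fold change was 0.11 (SE 0.49, adjusted p = 0.937 by edgeR). With Mmp2, these made up 67.3% and 58.7% of the summed MMP level per length in aged against 54.9% and 67.2% in young libraries. Mmp16 overlapped between ages, and the aged Mmp17 values lay slightly above the young ones (log2 fold change 0.23, SE 0.28). Among the remaining MMPs, Mmp19 and Mmp28 were readily measured at 28.5 to 58.3 CPM and had log2 fold changes of -0.18 and 0.04, while with TMM scaling Mmp23 was the only tested MMP whose aged libraries, at 6.55 and 4.78 CPM, both lay below the young ones, at 7.56 and 9.57 CPM (log2 fold change -0.60, adjusted p = 0.522 by edgeR). With total counts only Mmp16 and Mmp19 joined it, and Mmp17 overlapped between ages.

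The ADAMTS genes that cut aggrecan and versican were split. Adamts1 and Adamts5, neighbours on chromosome 16 and the ADAMTS genes with the highest levels per length, were on the higher side in aged MFP. Adamts5, the chief aggrecanase of mouse cartilage, measured 179 and 127 CPM in the aged and 83.7 and 106 CPM in the young libraries. The ages did not overlap, and the log2 fold change was 0.69 (SE 0.24, adjusted p = 0.465 by edgeR, 0.297 by DESeq2). Adamts1, a versican-cutting protease, measured 73.2 and 73.8 CPM in the aged and 35.6 and 60.5 CPM in the young libraries. Its log2 fold change was 0.61 (SE 0.29, adjusted p = 0.521 by edgeR) and 0.28 without young replicate 1. Their mean levels over the 4 libraries were both 11.5 CPM per kb, and neither was higher than the other in every library.

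Adamts4 (ENSMUSG00000006403, chr1:171250421-171260637), the other classical aggrecanase, was lower in aged MFP. It measured 1.58 and 0.91 CPM in the aged and 3.96 and 6.11 CPM in the young libraries. The highest aged library stood below the lowest young one. The aged level was 0.247 of the young level (log2 fold change -2.02, SE 0.45), with an adjusted p of 0.398 by edgeR and 0.00229 by DESeq2. Adamts9, which acts on versican, was also lower without overlap, at 78.2 and 97.8 CPM in the aged against 110 and 168 CPM in the young libraries (log2 fold change -0.66, adjusted p = 0.498 by edgeR). Adamts8, Adamts15 and Adamts20 overlapped between ages, with log2 fold changes of 0.04, -0.08 and -0.25.

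Procollagen N-proteinases remove the amino-terminal propeptide of fibrillar collagens. Adamts14 measured 11.2 and 8.56 CPM in the aged and 16.8 and 31.2 CPM in the young libraries. The ages did not overlap, with a log2 fold change of -1.28 (SE 0.38, adjusted p = 0.432 by edgeR, 0.0714 by DESeq2). Adamts2, the main enzyme of this kind for collagen I, measured 111 and 48.5 CPM in the aged and 44.7 and 62.9 CPM in the young libraries, and Adamts3 had a log2 fold change of -0.04. Both overlapped between ages. Adamts10, linked to fibrillin microfibrils, measured 74.7 and 59.4 CPM in the aged and 103 and 82.2 CPM in the young libraries. Adamts10 had a log2 fold change of -0.46 (SE 0.20, adjusted p = 0.503 by edgeR). Adamts7 and Adamts12, which cut cartilage oligomeric matrix protein, overlapped between ages with log2 fold changes of -0.07 and -0.16.

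Adamts17 and Adamts19, close relatives whose substrates are poorly known, both had lower levels in aged MFP. Adamts17 (ENSMUSG00000058145, chr7:66839735-67153171) measured 2.63 and 2.30 CPM in the aged and 7.28 and 11.2 CPM in the young libraries. The aged pair lay close together and far below the young pair. The log2 fold change was -1.90 (SE 0.32), with an adjusted p of 0.36 by edgeR and 4.04e-05 by DESeq2. Adamts19 measured 1.09 and 1.71 CPM in the aged and 3.22 and 7.53 CPM in the young libraries. Its young libraries differed more from each other than its aged libraries did, yet the ages did not overlap. The log2 fold change was -1.94 (SE 0.56), with an adjusted p of 0.428 by edgeR and 0.0305 by DESeq2. Adamts16 and Adamts18 also had negative values, of -1.66 and -0.76, but overlapped between ages. Adamts16 stood out in young replicate 2 alone, at 2.66 CPM against 0.404 to 0.629 CPM elsewhere.

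ADAMTS-like proteins bind the matrix without cutting it, and several of them bind fibrillin microfibrils. Adamtsl1 measured 32.3 and 28.1 CPM in the aged and 9.32 and 22.2 CPM in the young libraries. It was the only one of the 5 whose ages did not overlap, with a log2 fold change of 0.94 (SE 0.46, adjusted p = 0.527 by edgeR) that was 0.44 without young replicate 1. Adamtsl4, whose loss displaces the lens of the eye, measured 38.5 and 21.6 CPM in the aged and 12.7 and 33.2 CPM in the young libraries. Adamtsl5 measured 28.3 and 23.7 CPM in the aged and 10.8 and 28.9 CPM in the young libraries. Both had log2 fold changes of 0.39 (SE 0.57 and 0.52, adjusted p = 0.786 and 0.761 by edgeR), and both turned negative without young replicate 1, the lowest library for each. Adamtsl2 and Adamtsl3 had log2 fold changes of 0.14 and 0.02.

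A few genes stood out in young replicate 1, the library rich in lymphocyte markers. Mmp25, leukolysin, a membrane-anchored MMP known from leukocytes, measured 0.489 and 0.674 CPM in aged libraries, but 9.53 CPM in young replicate 1 beside 0.515 CPM in the other young library. Its log2 fold change of -3.11 (SE 1.43, adjusted p = 0.513 by edgeR) became 0.18 without young replicate 1. Adamts6 measured 8.70 and 5.78 CPM in the aged and 27.7 and 4.66 CPM in the young libraries, and its log2 fold change of -1.16 also turned positive without that library. Adamts13, the protease that trims von Willebrand factor, was not tested, with 0 and 9 counts in aged libraries, 122 in young replicate 1 and 1 in young replicate 2. Mmp7 had 25 counts in young replicate 1, 1 count in aged replicate 2 and 0 in both others. In all 4 genes this library exceeded every other by at least 3.18 times. It also led in the summed markers of lymphocytes and of cell division (96.0 CPM against at most 32.1 CPM elsewhere). Its macrophage sum was also the highest (520 CPM against 218 to 362 CPM), but that sum was mostly Lyz2, as given above. Of the 6 macrophage markers 5 had positive log2 fold changes and 1 a negative one. The part of these markers in the values of the 4 genes was not tested. For the last pair the ages therefore cannot be compared.

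**Figure D3:**
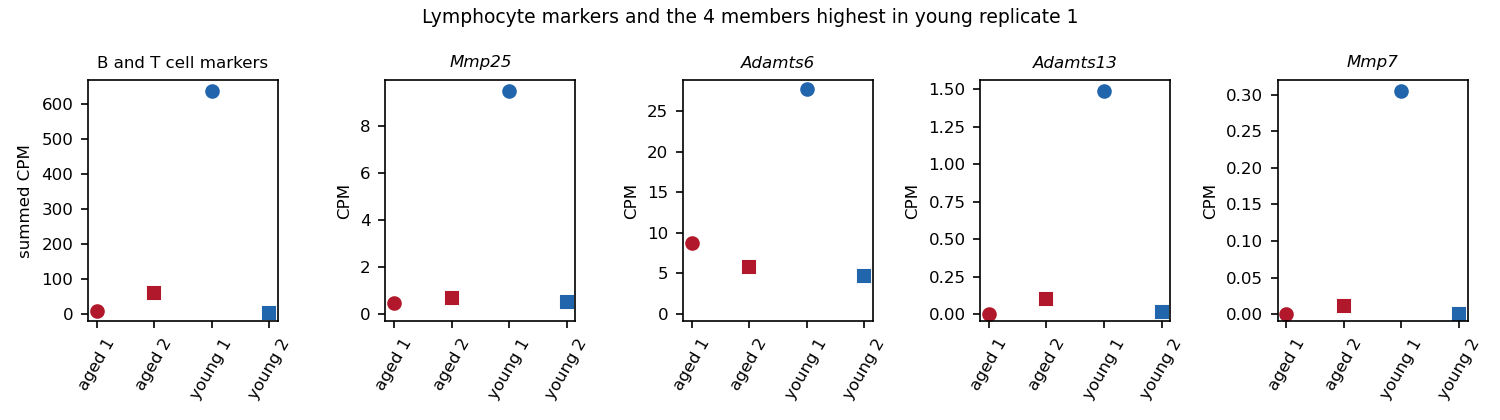
Summed CPM of 7 B and T lymphocyte markers and CPM of Mmp25, Adamts6, Adamts13 and Mmp7 in each library on linear axes, aged in red and young in blue. Young replicate 1 is highest in all 5 panels, with 636 CPM of lymphocyte markers and 9.53 CPM of Mmp25.

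Besides these, Mmp8, Mmp20, Mmp21, Mmp24 and Mmp1a were not tested, with at most 7 counts in any library, and Mmp8 had 3 counts in each aged library and 0 in the young libraries. Neutrophils are a known source of Mmp8. Their 7 summed markers were 4.06 and 5.73 CPM in the aged and 3.73 and 4.20 CPM in the young libraries. Among them Ly6g, with at most 0.0244 CPM, was the only 1 at or under 3 counts in every library. The part of neutrophils in the Mmp8 counts was not tested.

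Summed by family per kilobase of exon, TIMP RNA was the family sum in which the ages did not overlap. It was 127 and 97.3 CPM per kb in aged against 50.7 and 61.5 in young libraries, a ratio of means of 2.00. MMP RNA summed to 129 and 105 CPM per kb in aged against 70.1 and 116 in young libraries. ADAMTS RNA summed to 82.0 and 63.6 against 62.4 and 86.9, and ADAMTS-like RNA to 19.1 and 13.5 against 7.10 and 17.2. The last 3 sums overlapped between ages, with young replicate 1 the lowest library in each. The ratio of TIMP to MMP RNA within a library does not depend on library scaling. It was 0.986 and 0.931 in aged against 0.722 and 0.531 in young libraries, and without Timp3 it was 0.504 and 0.459 against 0.413 and 0.280. The aged ratios lay above the young ones both with and without Timp3, which made up 42.8% to 50.7% of TIMP RNA. These are RNA ratios, and protein and protease activity were not measured here. Among single genes tested, 46.1% also showed no overlap between ages. The part of the cell type differences between libraries in these sums and ratios was not tested.

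**Figure D4:**
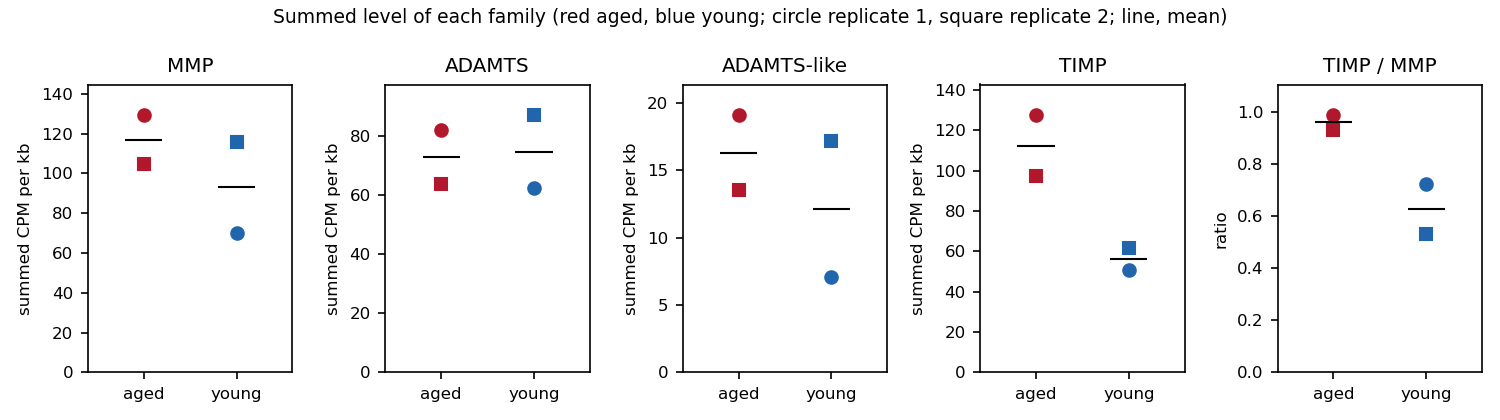
Summed CPM per kb of exon of the MMP, ADAMTS, ADAMTS-like and TIMP genes and the ratio of the TIMP to the MMP sum, with aged libraries in red, young in blue, replicate 1 as circles, replicate 2 as squares and lines at the means. The aged and young points are separate for the TIMP sum and for the ratio and overlap in the other 3 panels.

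Activators and other regulators of these proteases were taken as a list of 17 genes, of which 15 were tested. None passed edgeR's quasi-likelihood test at an adjusted p under 0.05, with 11 of the values positive and 4 negative and a median log2 fold change of 0.37. At an unadjusted p under 0.05, 3 of the 15 were higher and 2 lower, beside 7.24% and 3.31% of all genes. Plau, the urokinase that makes plasmin and so starts activation of several pro-MMPs, was called higher by DESeq2 (adjusted p = 0.0449), with 34.1 and 29.5 CPM in the aged and 12.7 and 18.6 CPM in the young libraries. Its log2 fold change was 1.02 (SE 0.26, adjusted p = 0.409 by edgeR). Itgb3, the integrin subunit that with Itgav can dock Mmp2 at the cell surface, was called lower by DESeq2 (adjusted p = 0.000535), with 16.9 and 14.6 CPM in the aged and 49.7 and 34.5 CPM in the young libraries. Itgb3 had a log2 fold change of -1.42 (SE 0.25, adjusted p = 0.36 by edgeR), while Itgav had a positive value of 0.45. Pcsk6, a proprotein convertase, measured 89.7 and 49.0 CPM in the aged and 30.9 and 32.0 CPM in the young libraries (log2 fold change 1.14, adjusted p = 0.431 by edgeR). Plaur, the urokinase receptor, lay on the other side of 0 from Plau, at 3.79 and 4.10 CPM in the aged and 8.93 and 5.83 CPM in the young libraries (log2 fold change -0.90, adjusted p = 0.462 by edgeR). Plg, the plasminogen that urokinase cuts, had at most 4 counts and was not tested. Reck, a membrane-anchored MMP inhibitor, had a log2 fold change of 0.79 (SE 0.26, adjusted p = 0.46 by edgeR) with no overlap between ages.

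Substrates of these proteases were taken as a list of 20 genes, of which 18 were tested and none passed the adjusted threshold of edgeR. There were 7 positive and 11 negative values with a median log2 fold change of -0.25, and at an unadjusted p under 0.05, 2 were higher and 5 lower, beside 7.24% and 3.31% of all genes. DESeq2 called 1 of the 18 higher and 5 lower, beside 3.03% and 0.642% of all genes. Col1a1, a chain of collagen I and the target of Mmp13 and of the procollagen N-proteinases, was called lower, at 503 and 350 CPM in the aged and 1213 and 1368 CPM in the young libraries. For Col1a1 the log2 fold change was -1.60 (SE 0.27, adjusted p = 0.36 by edgeR, 2.05e-05 by DESeq2). Col1a2 and Col3a1 were also called lower by DESeq2, with log2 fold changes of -1.05 and -1.12 and adjusted p-values of 0.00719 and 0.014 by that tool. Fn1, fibronectin, measured 110 and 97.6 CPM in the aged and 297 and 592 CPM in the young libraries. Fn1 had a log2 fold change of -2.10 (SE 0.39, adjusted p = 0.368 by edgeR, 0.000105 by DESeq2). Vcan, the versican cut by Adamts1, Adamts4 and Adamts5, measured 12.0 and 14.6 CPM in the aged and 25.0 and 77.0 CPM in the young libraries. Vcan had a log2 fold change of -1.94 (SE 0.60, adjusted p = 0.445 by edgeR, 0.0331 by DESeq2). Dcn, the small proteoglycan decorin, was called higher, with 272 and 248 CPM in the aged and 89.0 and 118 CPM in the young libraries (log2 fold change 1.33, SE 0.20, adjusted p = 0.36 by edgeR, 8.99e-05 by DESeq2). Summed stromal fibroblast markers, a list that itself holds Col1a1 and Dcn, were 1548 and 1158 CPM in aged against 1944 and 2169 CPM in young libraries, with 4 of its 7 genes positive and 3 negative. Aggrecan (Acan) and brevican (Bcan) were not tested, with at most 0.0734 CPM in any library.

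**Figure D5:**
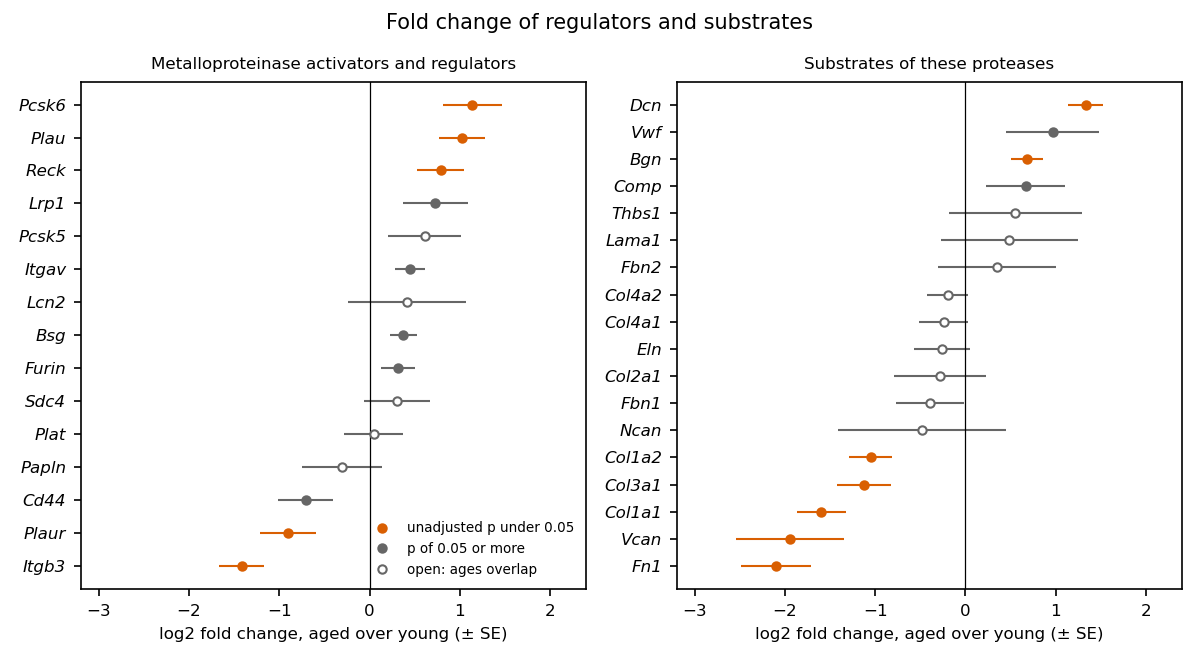
Log2 fold change, aged over young, of the 15 tested regulators and 18 tested substrates, with bars of 1 standard error; orange marks an unadjusted p under 0.05 and open circles mark overlapping ages. Fn1, Vcan and the collagen I and III genes lie left of -1, and Dcn lies to the right at 1.33.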

How the data were processed

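Total RNA of whole MFP, depleted of ribosomal RNA, was sequenced in 2 aged and 2 young libraries that keep the strand. The authors deposited whole-number counts per gene, 1 column per sample, not normalized. The submitters' processing notes name featureCounts, R 3.6.1 and the builds GRCm38 and hg38, without saying which step used which. The aligner, annotation release and strand setting are not given in the sources used here. Groups and replicate numbers came from the sample titles.

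Counts were analysed with edgeR 4.0.16 and, as an alternative, DESeq2 1.42.0, under R 4.3.3 with limma 3.58.1. Genes kept by filterByExpr (22485) were scaled by TMM and tested by glmQLFit and glmQLFTest with age as the only term, and p-values were adjusted by Benjamini-Hochberg over all of them. The standard error is the log2 fold change divided by the square root of F. Reads from genes overlapping on opposite strands cannot be told apart if strand was ignored in counting. Scaling by total counts only was also run, and the part of the muscle RNA in either scaling was not tested.

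Values per kilobase use merged exons of GENCODE M21 (GRCm38), which holds all 51 genes. Promoters are from RefSeq GRCm38.p6. Alternatives were other scalings, leaving out the filter or asking for 10 counts in each library, a replicate block, DESeq2, edgeR's likelihood ratio test, its newer quasi-likelihood method, and leaving out each replicate. A crossed block and DESeq2 without each replicate were added after seeing the data. Code was tested on simulated counts. The genes and lists were chosen with earlier results of these data known. Named in full were the TIMPs, the gelatinases, the 3 genes of highest level and the 3 of largest change in each other family, genes at an unadjusted p under 0.05, and genes called by DESeq2; in each pathway list, the 3 largest changes and DESeq2 calls. Others are given in ranges or in short for their role. Some results are not reported here.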

Additional observations from a re-analysis of the deposited data

How the results depend on the processing

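The number of genes of these families past an adjusted p of 0.05 was 0 by edgeR's quasi-likelihood test in every setting tried, 7 by DESeq2 and 3 by the likelihood ratio test (Adamts17, Mmp3 and Timp3). With each library left out in turn it stayed at 0 by the quasi-likelihood test and ran from 1 to 15 by DESeq2. In the latter fits the lone sample of an age is assumed to vary like the others. The number at an unadjusted p under 0.05 ran from 6 to 25 over the libraries left out. The median log2 fold change of MMPs was 0.051 with total counts only, over the same 15 genes. With no filter on low counts it was 0.034, but over 21 MMPs. Over the libraries left out, medians ran from 0.11 to 0.82 for MMPs, -0.54 to 0.086 for ADAMTS, -0.14 to 1.25 for ADAMTS-like and 0.63 to 1.15 for TIMPs.

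Directions reversed for Mmp15 with total counts only (-0.070), without aged replicate 1 (-0.11) and without young replicate 1 (-0.41), for Mmp14 without aged replicate 2 (0.08) and without young replicate 2 (0.16), for Mmp25 without young replicate 1 (0.18), for Adamtsl4 without aged replicate 1 (-0.10) and without young replicate 1 (-0.14), and for Adamtsl5 without young replicate 1 (-0.15). Over the libraries left out, Mmp15 ran from -0.41 to 0.94, Mmp14 from -0.65 to 0.16, Mmp25 from -4.02 to 0.18, Adamtsl4 from -0.14 to 1.25 and Adamtsl5 from -0.15 to 1.28. The cause was not tested. Of 264 values for the 22 genes of the families named in full, these 9 reversed and 7 passed the threshold, all 7 by DESeq2. Over all 42 tested genes, the number that turned sign was 5 with total counts only, 4 with a replicate block, and 7, 6, 9 and 8 without aged replicates 1 and 2 and young replicates 1 and 2.

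Replicate numbers were read as naming samples only. Deviations from the age means correlated across genes at -0.48 for same-numbered samples and at 0.48 for crossed ones. With 2 samples an age these are 1 value with its sign turned, so they cannot tell whether samples were paired. A replicate block left 10 genes of the families with an unadjusted p under 0.05 and 0 with an adjusted one. Crossing the numbers of that block, a choice made after the data were seen, gave 14 and 0. With 3 counts as the floor, genes such as Mmp13 and Timp1 rest on few reads, and 2 samples an age limit every call.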

Other observations

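A list of 16 other proteases of the extracellular matrix (ADAMs, tolloids, meprins, cathepsins, Fap and Htra1) was also described, and 14 of them were tested. By edgeR's quasi-likelihood test 0 passed an adjusted p of 0.05, 7 values were positive and 7 negative, and the median log2 fold change was 0.02. At an unadjusted p under 0.05, 2 of the 14 were higher and 2 lower, beside 7.24% and 3.31% of all genes. Of the 14, 1 was called lower by DESeq2, beside 0.642% of all genes. That gene was Adam8, a leukocyte sheddase (adjusted p = 0.00197). Adam8 measured 3.85 and 3.66 CPM in the aged and 19.5 and 9.31 CPM in the young libraries, a log2 fold change of -1.94 (SE 0.43, adjusted p = 0.398 by edgeR). The higher of its young values was in young replicate 1, the library with the most lymphocyte marker RNA, whose part in this value was not tested. Htra1, a secreted serine protease, measured 184 and 106 CPM in the aged and 76.2 and 61.0 CPM in the young libraries (log2 fold change 1.08, SE 0.32, adjusted p = 0.433 by edgeR). Tll2, a tolloid protease, had at most 0.404 CPM and a log2 fold change of 1.19 (SE 1.00) with overlapping ages.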
